A study of Mus musculus with 4 samples.

Results

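The genes described here are 10 enzymes that build fatty acids and then desaturate or lengthen them: Scd1, Scd2, Fads1, Fads2, Fasn, Acaca, Acly, Elovl1, Elovl5 and Elovl6. They were found by gene symbol in the tables of read counts, and all 10 were among the 22722 genes counted. All 10 also had enough counts to be tested, as did 11027 genes in all. The rule names symbols and no value, but the genes were selected on earlier results of these libraries, the differences in counts between Ell2-KD and shGFP. Differences between the groups are therefore given for these genes as a description.

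The cells were MPC11, a mouse plasmacytoma line that secretes immunoglobulin. Control cultures (shGFP, n = 2) carried the lentiviral vector pLKO.1 with a hairpin against GFP, and depleted cultures (Ell2-KD, n = 2) carried it with the hairpin 1C7 against Ell2, an elongation factor of RNA polymerase II. All cultures were exposed to virus for 18 h, selected with puromycin for 72 h and expanded for 72 h, so the controls share the vector and the drug. A single hairpin was used against Ell2, and each library is from the whole selected culture. The labels call the samples biological replicates without saying that each was transduced separately, so the errors measure only the spread between these samples.

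Fatty acid synthesis starts in the cytosol, where Acly splits citrate to give acetyl-CoA, Acaca carboxylates acetyl-CoA to malonyl-CoA, and Fasn joins these units into palmitate. Elongases of the Elovl family lengthen the chains, the stearoyl-CoA desaturases Scd1 and Scd2 place a double bond in saturated chains, and Fads2 and Fads1 desaturate polyunsaturated chains. SREBP transcription factors drive much of this set in many tissues, and secretory cells such as plasma cells use its products for the membranes of the endoplasmic reticulum.

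Scd1 and Scd2 are close copies, so their coding sequences are shown to make clear which reads could tell them apart. In the GENCODE M21 annotation (build GRCm38, whereas the counts were made on mm9) the coding sequences aligned with 90.7% identity over 1064 bases. In the 120-base stretch with the most differences they differed at 20 bases, which are in capitals. Bases are counted from the start of each coding sequence, 5′ to 3′.
Scd1, coding bases 103 to 222: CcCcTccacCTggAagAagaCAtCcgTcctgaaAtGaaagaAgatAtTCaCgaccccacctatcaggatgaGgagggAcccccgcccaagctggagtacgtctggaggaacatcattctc
Scd2, coding bases 112 to 231: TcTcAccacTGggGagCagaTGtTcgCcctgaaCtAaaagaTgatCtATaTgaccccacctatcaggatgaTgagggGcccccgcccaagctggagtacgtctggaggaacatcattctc
Another 120-base stretch did not differ at all, and reads inside it cannot be assigned to either gene by sequence.
Scd1 coding bases 523 to 642 and Scd2 coding bases 532 to 651: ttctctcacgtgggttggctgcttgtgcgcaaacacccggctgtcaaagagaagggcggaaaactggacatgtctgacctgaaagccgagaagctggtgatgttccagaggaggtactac
Of the 4884 different windows of 35 bases in Scd1 transcripts, 7.27% occurred in transcripts of another gene, and of the 5461 in Scd2 transcripts, 6.04%. For both the gene that shared most was Scd3, with 253 windows of Scd1 and 230 of Scd2. Fads1 and Fads2 were further apart, with 68.3% coding identity. Elovl5 and Elovl6 had 62.6%. How the authors' counting treated reads with several matches is not given in the sources used here.

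Promoters are shown for 3 genes with different patterns in the counts: Fads2, which stood lower after depletion, and Fasn and Elovl5, which did not. RefSeq promoter entries (GRCm38.p6) matched 7 of the 10 genes. Scd1, Scd2 and Fads1 had none. The 250 bases before the transcription start were searched on both strands for the CCAAT box (CCAAT), the E-box (CACGTG), a sterol regulatory element (TCACNCCAC) and the GC box (GGGCGG). Matches are in capitals.
Fads2, chr19:10101504-10101753, minus strand: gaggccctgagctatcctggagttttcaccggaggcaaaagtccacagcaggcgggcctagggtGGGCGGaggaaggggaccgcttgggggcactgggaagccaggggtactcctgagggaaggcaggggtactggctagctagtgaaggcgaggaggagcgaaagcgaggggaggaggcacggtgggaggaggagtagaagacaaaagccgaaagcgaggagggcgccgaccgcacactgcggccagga
Fasn, chr11:120824548-120824797, minus strand: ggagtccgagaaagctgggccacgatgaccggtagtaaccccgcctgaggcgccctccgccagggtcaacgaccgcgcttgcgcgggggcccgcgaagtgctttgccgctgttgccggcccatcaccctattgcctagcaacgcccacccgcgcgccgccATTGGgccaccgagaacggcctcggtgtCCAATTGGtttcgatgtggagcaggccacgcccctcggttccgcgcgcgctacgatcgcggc
Elovl5, chr9:77917115-77917364, plus strand: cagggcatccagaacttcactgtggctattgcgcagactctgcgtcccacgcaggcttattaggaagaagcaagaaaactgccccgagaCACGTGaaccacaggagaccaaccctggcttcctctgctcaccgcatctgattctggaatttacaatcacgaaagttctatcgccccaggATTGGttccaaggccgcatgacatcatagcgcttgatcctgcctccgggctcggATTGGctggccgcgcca
The Fads2 window held 1 GC box, the Fasn window 3 CCAAT boxes of which a pair overlap, and the Elovl5 window 2 CCAAT boxes and 1 E-box. Of the windows not shown, that of Acly, which stood higher, held 4 GC boxes and no CCAAT box. Those of Acaca, which stood higher, and Elovl6, which stood lower, held none of the motifs. The Acaca window had the lowest GC content, 39.2% beside 55.6% to 72% in the others, and whether it is the main promoter of the gene was not tested. The windows of Elovl1 held 5 GC boxes with 1 CCAAT box, and 2 GC boxes. A link between motifs and counts was not tested. Of 32851 mouse promoter windows of this length, 33.8% held a CCAAT box, 32.7% a GC box, 6.02% an E-box and 1.05% the sterol element. None of the windows of the 7 genes held the sterol element as spelled here.

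The libraries held 3496471 to 13914488 counts, and the shallowest and the deepest were both Ell2-KD. Ell2 stood at 938 and 996 CPM (the usual counts-per-million unit, here after TMM scaling) with shGFP and at 87.8 and 115 CPM after depletion, which is -3.25 ± 0.23 on the log2 scale (SE; adjusted p = 0.00032 in edgeR). All 10 plasma cell markers were counted and tested. Sums of markers are given as CPM of the library total, and single genes as TMM-scaled CPM or as counts. The sum was 21687 and 16711 with shGFP and 17695 and 13930 after depletion, overlapping between the groups. Gene by gene, 7 of the 10 were lower in both depleted libraries, as the desaturases were, 1 was higher (Cd38) and 2 overlapped, Xbp1 among them. Over all genes tested 18.5% were lower in both and 17.4% higher in both. The plasma cell surface marker Sdc1 stood at 784 and 648 against 478 and 347 CPM, the B-lineage coactivator Pou2af1 at 1125 and 905 against 622 and 476 CPM, and the survival receptor Tnfrsf17 had 159 and 126 against 18 and 1 counts. In edgeR 0 of the 10 passed, beside 0.0453% of all genes tested. Those 3 had an unadjusted p under 0.05, beside 5.82% of all genes tested. The part of these markers in the results was not tested. Markers of cells specialised in lipid storage or synthesis were close to 0. The 8 adipocyte markers summed to at most 2.76 and the 8 hepatocyte markers to at most 2.16 CPM in any library. Fabp4, Pparg and Plin1 had 1, 1 and 2 counts in all. The largest adipocyte markers were Cidec, with 0 and 0 counts with shGFP and 26 and 2 after depletion, and Adipoq, with 19 and 0 against 1 and 1. None of the 8 had enough counts to be tested. T cell (8 genes) and myeloid markers (9 of 10 found) summed to at most 5.31 and 5.43. The 12 fibroblast and epithelial markers summed to 496 and 635 with shGFP and 457 and 594 after depletion, nearly all from Epcam, and Thy1 had 1, 0, 0 and 1 counts.

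The 4 desaturases stood lower in both depleted libraries than in both controls, while the 3 enzymes that make palmitate stood slightly higher in both. The elongases were divided, with Elovl6 lower, Elovl5 higher and Elovl1 overlapping. In all, 9 of the 10 genes did not overlap between the groups, 5 of them lower and 4 higher. Over all genes tested 35.8% did not overlap, 18.5% lower and 17.4% higher. These shares come from the contrast that was in view when the list was drawn up, and nothing is read from the difference.

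**Figure D1:**
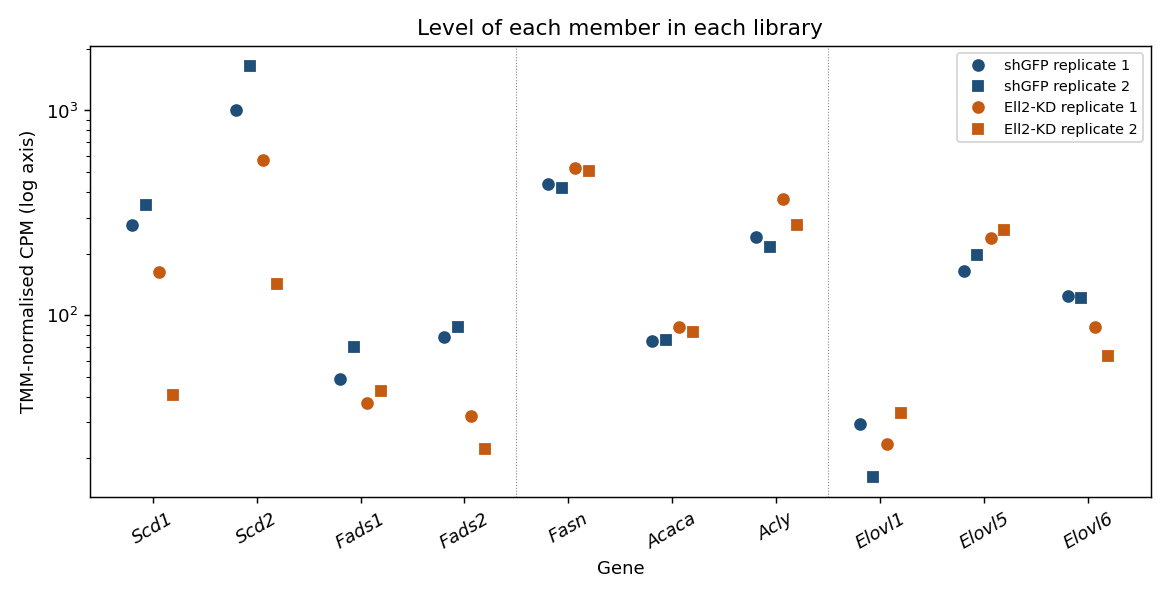
Level of each of the 10 genes (x axis) in TMM-normalised CPM on a log axis (y axis). Each point is 1 library, blue for shGFP and orange for Ell2-KD, circles for replicate 1 and squares for replicate 2; dotted lines separate desaturases, synthesis enzymes and elongases. Scd1 and Scd2 spread most within a group, between the Ell2-KD libraries, while Fasn and Acaca hardly vary.

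The stearoyl-CoA desaturases had the widest differences of the set. Scd2 stood at 1006 and 1640.5 CPM in shGFP replicates 1 and 2 and at 573 and 143 CPM in Ell2-KD replicates 1 and 2. The lowest control was above the highest depleted library, and on the log2 scale the depleted libraries lay further apart (-2.001) than the nearest libraries of the groups (-0.81). The log2 change was -1.88 ± 0.93 (SE, 95% interval -5.09 to 1.32), an interval that spans 0. Scd1 stood at 276 and 347 CPM with shGFP and at 162 and 41.0 CPM after depletion, again with no overlap and with replicate 2 of Ell2-KD lowest. Its log2 change was -1.60 ± 0.75 (SE, 95% interval -3.79 to 0.58).

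Between the depleted replicates, Scd1 and Scd2 differed by almost the same amount. Replicate 2 was lower than replicate 1 by a log2 difference of -1.98 for Scd1 and -2.001 for Scd2. In the controls replicate 2 was the higher, by 0.33 and 0.71. Within replicate number 1 the difference between the groups was -0.76 for Scd1 and -0.81 for Scd2, and within number 2 it was -3.08 and -3.52, so replicate number 2 carried most of the size. Ell2-KD replicate 2 is also the shallowest library, with 140 counts of Scd1 and 488 of Scd2. In the same library Fasn had 1724, Acly 939 and Elovl5 887 counts, and their CPM were above both controls. Without that library the log2 changes were -0.93 for Scd1 and -1.20 for Scd2, and without Ell2-KD replicate 1 they were -2.92 and -3.21.

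The ratio of Scd2 to Scd1 counts is independent of scaling between libraries. It was 3.65 and 4.72 with shGFP and 3.52 and 3.49 after depletion. The ratio thus moved between 3.49 and 4.72 while the level of Scd2 moved between 143 and 1640.5 CPM. How many of the reads fell in the stretches that the copies share was not tested. Their paralogs were near the floor: Scd3 had 20 and 5 counts with shGFP and 3 and 1 after depletion, and Scd4 0, 11, 16 and 2.

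Fads2, the desaturase at the entry of polyunsaturated fatty acid synthesis, differed with the least spread among the lower genes relative to its size. It stood at 78.6 and 87.9 CPM with shGFP and at 32.2 and 22.2 CPM after depletion, about 3.03-fold lower. Both depleted libraries were far below both controls, and replicates lay close together. The log2 change was -1.60 ± 0.35 (SE, 95% interval -2.36 to -0.84), with -1.28 within replicate number 1 and -1.97 within number 2. By p in edgeR it was number 24 of the 11027 genes tested, with an adjusted p of 0.346. The genes were selected on this same contrast, so the rank is only a description.

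Fads1, which acts later in the same pathway, stood at 48.9 and 69.8 CPM with shGFP and at 37.1 and 42.4 CPM after depletion. The groups did not overlap, but the nearest libraries were only a few CPM apart, and the log2 change of -0.58 ± 0.35 (SE) had an interval that spans 0 (-1.36 to 0.20). Without shGFP replicate 2 it was -0.30. The ratio of Fads2 to Fads1 counts was 1.61 and 1.26 with shGFP and 0.868 and 0.524 after depletion. In the controls Fads2 had the more counts of the pair, and after depletion Fads1. Fads3, a relative of both, stood at 18.7 and 35.9 against 7.02 and 20.8 CPM, overlapping between the groups. Summed over the 4 desaturases the level was 1409 and 2146 CPM with shGFP and 804 and 249 CPM after depletion. Scd2 alone made up 1006 and 1640.5 CPM of these sums with shGFP and 573 and 143 CPM after depletion.

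**Figure D2:**
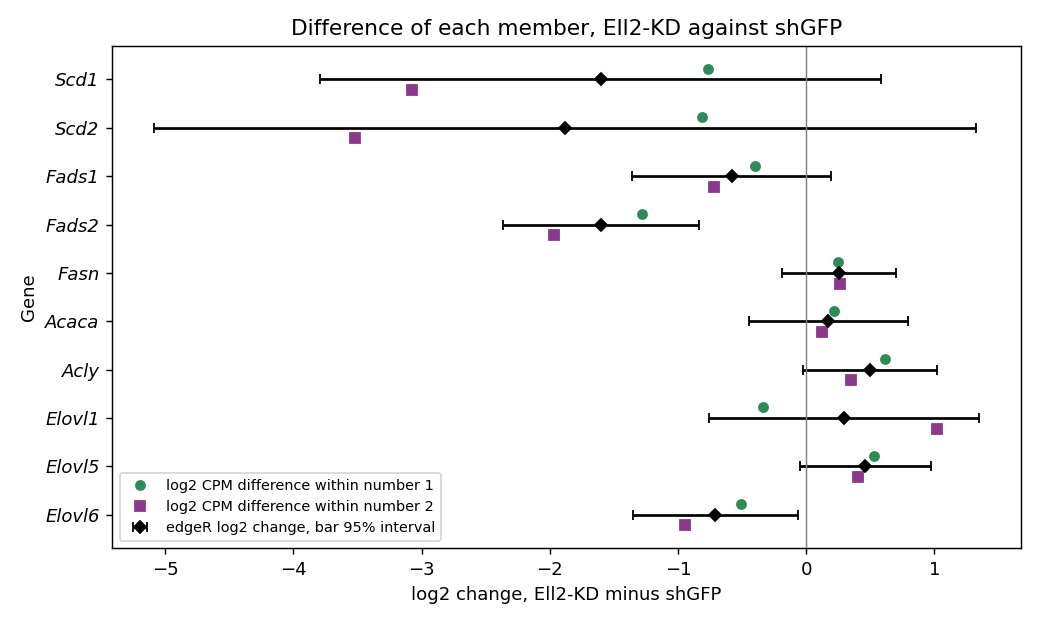
Log2 change of each gene between Ell2-KD and shGFP (x axis; below 0 is lower in Ell2-KD). Diamonds are the edgeR estimates with 95% intervals, circles and squares the log2 CPM differences within replicate numbers 1 and 2; the intervals of Fads2 and Elovl6 alone do not reach 0, and those of Scd1 and Scd2 are the widest.

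The enzymes that make palmitate had small differences, all toward higher levels. Fasn stood at 439 and 420.3 CPM with shGFP and at 522 and 505 CPM after depletion. Both depleted libraries were above both controls, by a log2 change of 0.26 ± 0.20 (SE, 95% interval -0.19 to 0.70). Acaca, the carboxylase that supplies Fasn, stood at 75.2 and 75.6 CPM with shGFP and at 87.6 and 82.6 CPM after depletion (log2 change 0.17 ± 0.28, SE, 95% interval -0.45 to 0.80). Of the 17103 windows of 35 bases in Acaca transcripts 32.7% occurred in another gene, 5328 of them in Gm5182, so the Acaca level is uncertain. Acly stood at 241 and 215 CPM with shGFP and at 369.7 and 275 CPM after depletion (log2 change 0.50 ± 0.24, SE, 95% interval -0.02 to 1.02), and its log2 change was 0.27 without Ell2-KD replicate 1.

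All 3 intervals include 0, and they allow at most a log2 decrease of -0.19 for Fasn, -0.45 for Acaca and -0.02 for Acly. The ratio of Fasn to Acaca counts varied least of the ratios computed, at 5.84 and 5.56 with shGFP and 5.96 and 6.11 after depletion. Set against Fasn in the same library, Scd2 had 2.29 and 3.90 counts per Fasn count with shGFP but 1.10 and 0.283 after depletion. For Fads2 the same ratio was 0.179 and 0.209 against 0.0617 and 0.0441.

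Elovl6, which lengthens palmitate to stearate, stood at 125 and 122 CPM with shGFP and at 87.5 and 62.9 CPM after depletion. The controls were almost equal, and both depleted libraries were below them. The log2 change was -0.71 ± 0.29 (SE, 95% interval -1.35 to -0.06), with -0.51 within replicate number 1 and -0.95 within number 2. Of its 35-base windows 5.82% occurred in another gene, most in Gm11295, and 34 bases of its exons overlap the antisense gene Gm35986. Elovl5, which lengthens polyunsaturated chains, stood at 165 and 196 CPM with shGFP and at 239 and 259.7 CPM after depletion, with no overlap and a log2 change of 0.46 ± 0.23 (SE, 95% interval -0.05 to 0.97). The ratio of Elovl5 to Elovl6 counts was 1.33 and 1.61 with shGFP and 2.73 and 4.13 after depletion.

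Elovl1, an elongase of very long saturated and monounsaturated chains, was the scarcest of the set by summed counts, with 82 to 330 per library. It stood at 29.6 and 16.3 CPM with shGFP and at 23.4 and 33.4 CPM after depletion, so the groups overlapped. The log2 change was 0.30 ± 0.48 (SE), but -0.33 between the libraries numbered 1 and 1.02 between those numbered 2, and with 1 library left out it ran from -0.069 (shGFP replicate 2) to 0.81 (shGFP replicate 1). Its exons overlap those of Cdc20 on the opposite strand over 53 bases. The other elongases were scarcer still: Elovl2, Elovl3 and Elovl4 had at most 6 counts in any library, and Elovl7 stood at 11.6 and 8.73 against 19.0 and 24.3 CPM (log2 change 1.08 ± 0.54, SE).

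**Figure D3:**
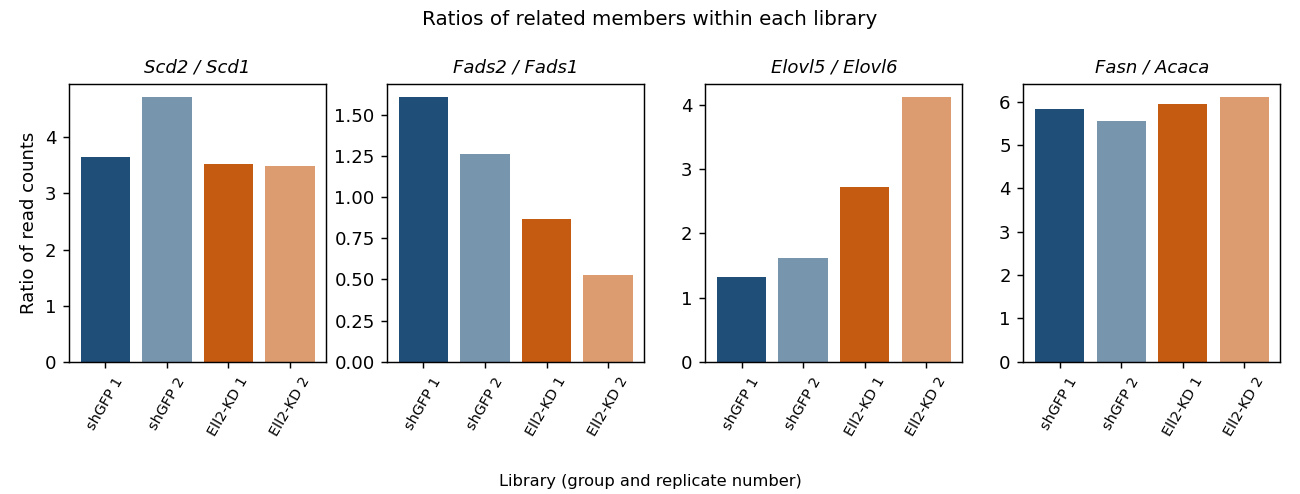
Ratio of read counts (y axis, from 0) of 4 pairs of related genes in each library (x axis), blue for shGFP and orange for Ell2-KD, darker for replicate 1. None of the 4 ratios plotted overlaps between the groups: Scd2 to Scd1 (3.49 to 4.72 over all libraries) and Fads2 to Fads1 (0.524 to 1.61) are lower in both Ell2-KD libraries, and Fasn to Acaca (5.56 to 6.11) and Elovl5 to Elovl6 (1.33 to 4.13) are higher. For Scd2 to Scd1 and Fasn to Acaca the groups were barely apart, with nearest libraries at 3.65 (shGFP replicate 1) and 3.52 (Ell2-KD replicate 1), and at 5.84 and 5.96 in the same libraries. The counting error of the ratios and the share of other gene pairs without overlap were not computed. Fasn to Acly, not plotted, was 1.83 and 1.95 with shGFP and 1.41 and 1.84 in Ell2-KD. Elovl5 to Elovl1, also not plotted, was 5.59 and 12.1 with shGFP and 10.2 and 7.78 in Ell2-KD. Both of these overlapped between the groups.

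In edgeR's quasi-likelihood test, adjusted over all genes, 0 of the 10 genes passed, where 0.0453% of all genes tested did (5 genes; 0.0363% lower and 0.00907% higher). The smallest adjusted p of the set was 0.346, for Fads2. At an unadjusted p under 0.05 there were 2, Fads2 and Elovl6, both lower, where 5.82% of all genes were at that level (3.26% lower and 2.57% higher). The median log2 change of the 10 genes was -0.20, beside -0.0015 over all genes tested, and 5 were negative and 5 positive, beside 50.1% negative over all genes. With the DESeq2 Wald test Fads2 passed (adjusted p = 0.0174), with limma-voom none did, and with edgeR on unfiltered genes Scd1 did (adjusted p = 0.0362). Scd1, Scd2 and Fads2 passed edgeR without Ell2-KD replicate 1 and Scd2 without Ell2-KD replicate 2, where the lone depleted library is assumed to vary like the controls. In bulk RNA, fewer cells that express a gene and less of its RNA per cell cannot be told apart.

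Levels of different genes were compared as CPM per kb of exon. In the controls Scd2 ranked highest, at 184 and 300 CPM per kb, followed by Scd1 at 56.4 and 71.0, Elovl5 at 47.0 and 55.7, Acly at 45.6 and 40.8 and Fasn at 40.1 and 38.4. Scd2 was above Scd1 in 4 of 4 libraries and Acly above Fasn in 4 of 4. The middle of the order was close: Scd1 lay above Elovl5 in 2 of 4 libraries, both of them controls, and Elovl5 above Acly in 3 of 4. Fads2 followed at 23.8 and 26.7 CPM per kb, Elovl6 at 19.4 and 18.9, Fads1 at 10.2 and 14.5, Elovl1 at 10.8 and 5.97 and Acaca at 4.41 and 4.43. Fads1 and Elovl1 were the only neighbours in this order that overlapped between the controls.

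In the depleted cells Elovl5 had the highest mean, 70.8 ± 4.18 CPM per kb (SD, n = 2), above Scd2 at 65.5 ± 55.6 (SD, n = 2). The spread of Scd2 covers that gap. Scd2 was at 105 CPM per kb in replicate 1, above Elovl5 at 67.8, and at 26.1 in replicate 2, below Elovl5 at 73.7. Scd1 went from place 2 in the controls to place 5. Fads2 went from 6 to 9, level with Fads1 (8.26 and 8.27 CPM per kb). Counted per kb of the longest transcript, Elovl5 was level with Scd1 in the controls (65.0 and 64.5), the depleted order had Acly above Scd2, and Fads2 took place 10 below Acaca. Per kb of all exons the last place is that of Acaca in both groups, but its length of 17074 bases, the union over all transcripts, is much longer than its longest transcript of 9513, which lowers its level per kb.

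**Figure D4:**
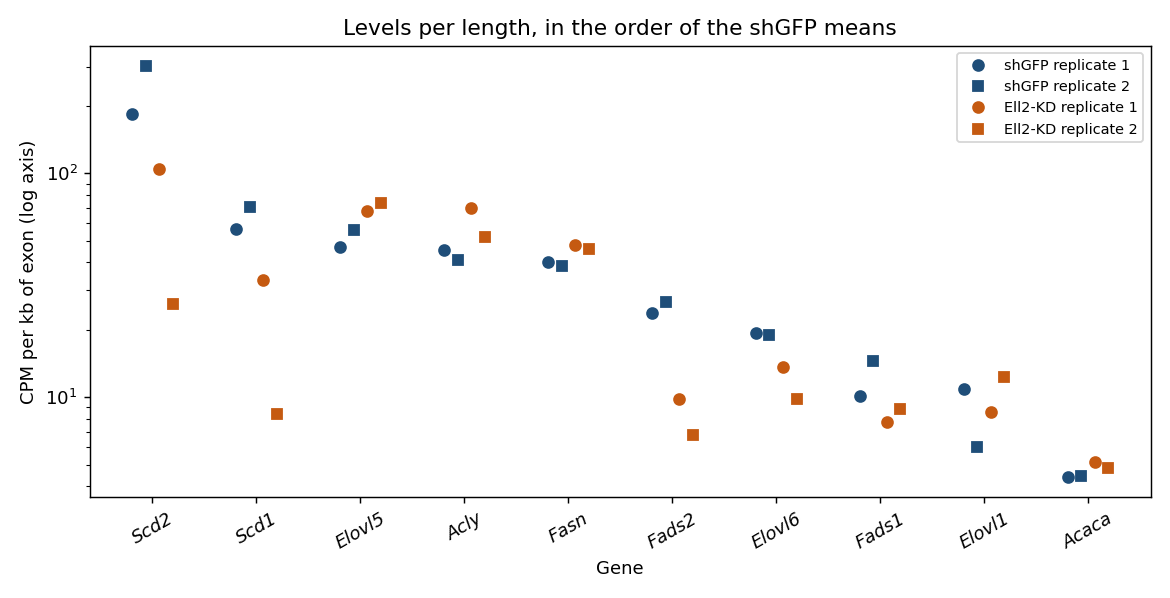
Level of each gene in CPM per kb of exon on a log axis (y axis), with genes in the order of their shGFP means (x axis). Points are libraries, blue for shGFP and orange for Ell2-KD; Scd2 leads in both controls, and in Ell2-KD replicate 2 it is below Elovl5, Acly and Fasn.

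The regulators of the pathway were present at moderate levels. Srebf1, the SREBP gene tied most to fatty acid synthesis, stood at 200 and 131 CPM with shGFP and at 169 and 69.1 CPM after depletion, overlapping between groups (log2 change -0.47 ± 0.41, SE). Srebf2, tied most to cholesterol synthesis, stood at 180 and 168 against 161 and 136 CPM (-0.23 ± 0.24). Insig1, which holds SREBPs in the endoplasmic reticulum and is itself an SREBP target, stood at 159 and 137 against 115 and 44.5 CPM (-0.88 ± 0.40), with Ell2-KD replicate 2 lowest. Scap, the escort of SREBPs to the Golgi, stood at 46.6 and 51.0 against 50.0 and 58.3 CPM. The SREBP proteases Mbtps1 and Mbtps2 had log2 changes of 0.49 ± 0.23 and 0.16 ± 0.32 (SE). Of the 12 genes of this list 6 were positive and 6 negative, with a median of -0.06, and 0 passed.

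The other lists of fatty acid metabolism were written by role in the pathway, with earlier results of these libraries known. Together with the SREBP list they hold 165 genes, of which 164 were counted and 134 tested, 71 with a positive and 63 with a negative log2 change. Of these 134, 0 passed edgeR's test and 11 had an unadjusted p under 0.05, beside 5.82% of all genes tested, and the groups did not overlap for 50, beside 35.8%. Among 20 genes that supply acetyl-CoA and NADPH 9 were positive and 11 negative (median -0.03), with Mdh1, the cytosolic malate dehydrogenase, at 0.19 ± 0.20 and Tkt, the transketolase, at -0.29 ± 0.28 (SE). Among 12 tested regulators of the carboxylase and synthase 9 were positive (median 0.25), with Prkaa1, a catalytic subunit of AMP-activated kinase, at 0.50 ± 0.29, Brca1 at 0.28 ± 0.36 and the mitochondrial carboxylase gene Acacb at 0.46 ± 0.68. The lipogenic regulator Mid1ip1 had at most 3 counts in any library and was not tested.

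Among 7 tested genes of other desaturases and their electron donors 5 were negative, with a median of -0.32. Degs1, the desaturase of ceramide synthesis, had a log2 change of 0.26 ± 0.21 and Cyb5b, an outer mitochondrial cytochrome b5, of 0.21 ± 0.26 (SE). Among 5 tested elongases and enzymes of the elongation cycle 3 were negative (median -0.05), with Ptplad1 (now Hacd3) at -0.05 ± 0.33 and Hsd17b12, the ketoreductase of the cycle, at 0.25 ± 0.29. Mitochondrial fatty acid synthesis had 3 positive and 5 negative genes, with Lias, the lipoic acid synthase, at -0.12 ± 0.31 and Mecr, the last reductase of the pathway, at -0.21 ± 0.39.

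Among 14 tested transcription factors other than SREBPs 9 were positive (median 0.13), with Sp1 at 0.13 ± 0.26 and Nfya, a subunit of the CCAAT-binding factor, at 0.13 ± 0.28 (SE). Of 12 genes of uptake and activation 5 were positive (median -0.05), with the acyl-CoA synthetases Acsl5 at 0.01 ± 0.21 and Acsl4 at -0.17 ± 0.22. Of 19 genes of glycerolipid assembly 9 were positive (median -0.04), with the acyltransferases Agpat5 at -0.06 ± 0.23 and Agpat6 (now Gpat4) at 0.17 ± 0.27. Of 25 genes of fatty acid oxidation 17 were positive (median 0.12), with Etfa, an electron transfer flavoprotein subunit, at -0.13 ± 0.34 and Hadh, a dehydrogenase of the oxidation cycle, at 0.11 ± 0.35.

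**Figure D5:**
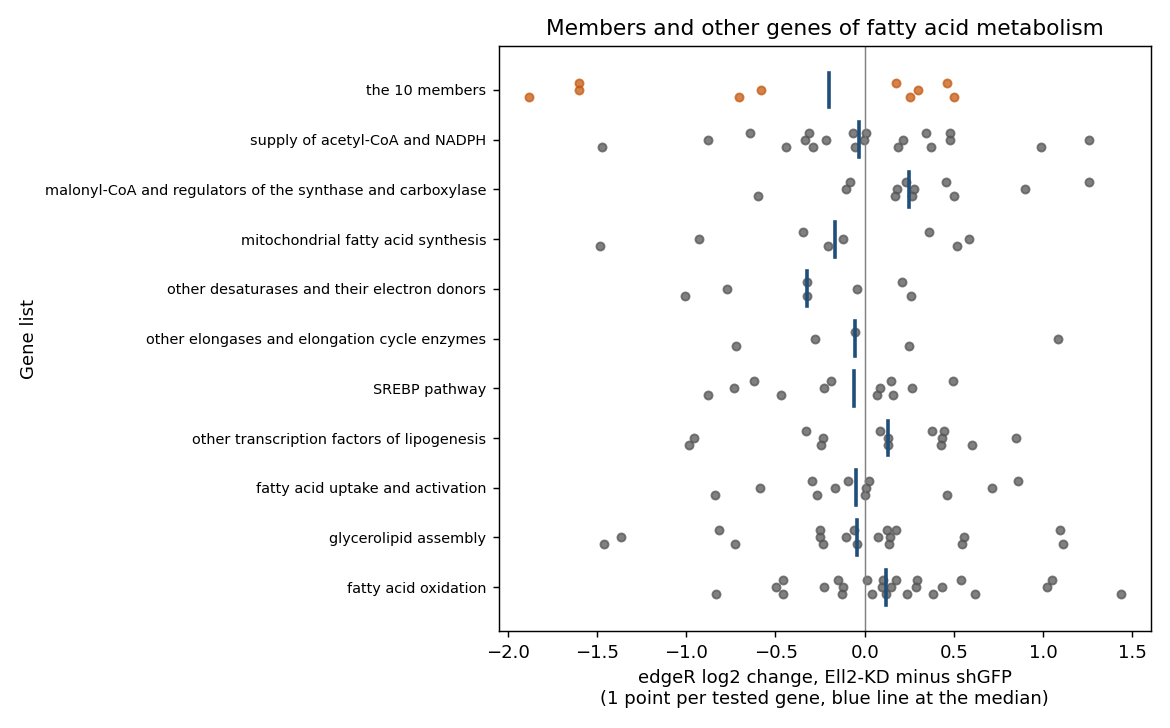
edgeR log2 change between Ell2-KD and shGFP (x axis) of each tested gene of the 10 genes described here and of 10 lists of fatty acid metabolism (y axis). Each point is 1 gene and each blue line a list's median; the 10 genes run from -1.88 to 0.50, and single genes of the other lists run from -1.48 to 1.44.

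The 10 genes also differed in how alike their patterns over the 4 libraries were. Likeness was measured as the root-mean-square difference of log2 CPM, each gene centred on its own mean. It is not scaled by how much a gene varies, so genes that hardly vary, such as Fasn and Acaca, lie close together. Fasn and Acaca were the closest pair of the set, at 0.05, and Scd1 and Scd2 differed by 0.18. The farthest pair was Scd2 and Elovl1, at 1.63. Among 7015 other genes with a mean of at least 20 CPM, the closest to Scd2 after Scd1 were Abca1, a cholesterol exporter, at 0.36, and Slc25a1, the mitochondrial citrate carrier, at 0.40. Abca1 stood at 68.9 and 77.6 CPM with shGFP and at 24.1 and 10.8 CPM after depletion, and Slc25a1 at 37.3 and 46.0 against 20.9 and 8.49 CPM. The closest to Fasn were Rbbp7, Eif4a1 and Hsp90ab1, at 0.0047 to 0.017, and to Acly Nup155, Gipc1 and Mrpl10, at 0.02 to 0.03. With 4 libraries many genes share such a pattern, and no test was made.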

How the data were processed

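Total RNA of 4 MPC11 cultures was sequenced by SOLiD RNA-Seq, as the labels state. For every library the authors deposited raw, unnormalised counts by gene symbol (1 table each), per the file headers. The tools in the submitters' processing notes are HTSeq 0.5.3, DESeq 1.4.1 and SAMtools 0.1.11, and the build is mm9. Aligner, annotation and strand setting were not given in the sources used here, so it is not known whether reads of overlapping antisense genes were told apart.

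edgeR 4.0.16 was run under R 4.3.3. Low genes were removed by filterByExpr (count of at least 10, total of at least 15), TMM gave the library scaling, and Ell2-KD was compared with shGFP by the two-sided quasi-likelihood test with robust settings. Benjamini-Hochberg adjustment covered the 11027 genes tested, and an adjusted p under 0.05 counted as passing. A standard error is the size of the log2 change divided by the square root of F, and log2 CPM used a prior count of 2. Precision rests on 2 libraries per group, whose depth differed, and on a common biological coefficient of variation of 0.431. DESeq2 1.42.0 and limma 3.58.1 served as alternatives, and the fits were tested on simulated data.

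Exon lengths, transcripts and overlaps came from GENCODE M21 and promoters from RefSeq, both of build GRCm38. The 10 genes and all lists were chosen with earlier results of these data known. Genes named are the 10, Ell2, the 2 most abundant tested genes of each list, set regulators and paralogs, and the 3 genes most like each of the 3 most abundant members. Of the listed genes, 10 pathway and 2 marker genes were matched through an older symbol and 1 of each was not found. The other genes of the tables were used only in the fit, the background shares and the search for like patterns.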

Additional observations from a re-analysis of the deposited data

How the results depend on the processing

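The 9 genes other than Elovl1 kept the sign of their log2 change in all 12 alternatives (other scaling, filters, tests, the replicate block, and each library left out). These 9 are the genes that did not overlap between the groups, so leaving out 1 library could hardly change a sign. The other alternatives reuse the same libraries, so nothing is concluded from the kept signs. With 1 library left out Elovl1 ranged from -0.069 (leaving out shGFP replicate 2) to 0.81, and it was -0.33 within replicate number 1. The number of genes passing over the whole table was 5, and 22 with no filter on low counts, 46 with the DESeq2 Wald test, 1 with edgeR without robust settings, 28 with the replicate block, and between 14 (shGFP replicate 1) and 142 (Ell2-KD replicate 1) with 1 library left out, among them 22 (shGFP replicate 2) and 82 (Ell2-KD replicate 2). The number of the 10 genes passing was 0, and 1 with no filter, 1 with DESeq2, 0 with the replicate block and 0 to 3 with 1 library left out. Their median of -0.20 was -0.15 with no filter, -0.36 within replicate number 1 and -0.29 within number 2, and -0.25 to -0.17 with 1 library left out. It lies midway between the middle genes, Fads1 (-0.58) and Acaca (0.17) in the main fit. Within number 1 these were Fads1 (-0.40) and Elovl1 (-0.33), and within number 2 Fads1 (-0.72) and Acaca (0.13). The median thus moves with few genes, and why those genes shifted was not tested. The number of negative members was 5 in every alternative except 6 without shGFP replicate 2. No paired design is stated: same-numbered libraries deviated together (r = 0.311 over 11027 genes), but the labels tie a number to no shared culture or day. In log2 CPM, Ell2-KD replicate 2 correlated with shGFP replicate 2 at 0.9195 and with Ell2-KD replicate 1 at 0.8833. The shGFP replicate 1 library correlated with Ell2-KD replicate 1 at 0.9187 and with shGFP replicate 2 at 0.9188. Replicate 1 was the deeper library in both groups, so number and depth cannot be told apart. With the replicate block Fads2 had an adjusted p of 0.0637 and Scd1 of 0.146. Genes under about 10 counts in the shallowest library, such as Scd3 and Elovl2, were too scarce to compare at this depth.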

Other observations

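The 11 genes of the pathway lists at an unadjusted p under 0.05 were named after their values were seen, and 0 of them passed edgeR's test over all genes. They were among 134 genes tested, and over all genes tested 5.82% were at that level, 3.26% lower and 2.57% higher. Of the 11, 8 stood lower in the depleted cells. Slc25a1, the citrate carrier that exports the substrate of Acly, had a log2 change of -1.47 ± 0.50 (SE), and Lpcat3, which places polyunsaturated chains in phospholipids, had -1.46 ± 0.48. Lpcat3 stood at 31.7 and 46.6 CPM in the controls and at 18.0 and 9.95 CPM in the depleted cells, so that, as for Scd1 and Scd2, Ell2-KD replicate 2 was lowest and shGFP replicate 2 highest. Idh2, the mitochondrial NADPH-producing isocitrate dehydrogenase, stood at 216 and 228 against 121 and 121 CPM (-0.88 ± 0.24), with little spread in either group. Rxrb, a retinoid X receptor, had -0.98 ± 0.38, Mlxip, a glucose-responsive factor, -0.96 ± 0.43, Acsl3, an acyl-CoA synthetase, -0.84 ± 0.35, Insig2, an SREBP retention protein, -0.73 ± 0.30, and Dld, a pyruvate dehydrogenase subunit, -0.64 ± 0.28.

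The other 3 stood higher. Pdha1, a pyruvate dehydrogenase subunit, stood at 346 and 465 CPM in the depleted cells against 206 and 203 CPM in the controls (0.99 ± 0.23, SE). Me1, the cytosolic malic enzyme that makes NADPH, had 1.25 ± 0.42 and Etfdh, which passes electrons from fatty acid oxidation to ubiquinone, 1.05 ± 0.41. Cpt1a, the gatekeeper of mitochondrial fatty acid oxidation, was also named after its values were seen, for its spread: it stood at 30.05 and 78.6 CPM in the controls and at 53.0 and 242 CPM in the depleted cells, higher in replicate 2 of each group.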
